A study of Mus musculus with 24 samples.

Results

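The genes described here are 48 known interferon-induced antiviral genes of the mouse, taken by symbol from the table of gene counts. All 48 symbols were among the 26253 gene rows of that table, and all 48 passed the filter on low counts, which kept 16153 genes for testing. The 48 members cover transcription factors of the pathway (Stat2, Irf7, Irf9 and the nuclear body gene Sp100), sensors and kinases of foreign nucleic acid, the ISG15 system, the IFIT and OAS families, ligases and PARPs, the IFI200 and IFI27 families, and MX, RSAD2 and other effectors. Their counts summed over all libraries ran from 1269 for Mx1 to 153879 for Ifitm3, and the smallest count of any member in any library was 21.

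RNA was sequenced from lung tissue of mice fed either a control diet or one with docosahexaenoic acid (DHA, an omega-3 fatty acid), which then breathed filtered air or ozone. Ozone is an oxidant gas that inflames the airways. The 4 groups were control diet with filtered air, control diet with ozone, DHA diet with filtered air and DHA diet with ozone, with 6 libraries in each and 24 in all. The design asks how lung gene expression differs with ozone, with the diet, and with the diet under ozone. The labels give no strain, sex, age, ozone dose or exposure time. They also do not say whether each library is its own animal, so every p-value reflects only how much these libraries vary. Library totals ran from 18053493 to 26225630 counts. The lung markers were abundant in every library: the summed level of 6 alveolar type 2 cell genes was 22558 CPM (read counts scaled to the library total) or more, and that of 3 club cell genes was 57820.4 CPM or more. In whole lung, fewer cells of a type and less RNA per cell cannot be told apart. Libraries 1 to 3 of control-diet air stood apart from libraries 4 to 6 of the same group, with a mean log2 CPM of 79 ribosomal protein genes of 6.00 to 6.07 against 6.40 to 6.45, and libraries 1 and 2 of DHA-diet ozone held the most neutrophil transcripts, so results are also given without them.

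Type I interferons are secreted when cells sense viral or misplaced nucleic acid, and they act through the receptor chains IFNAR1 and IFNAR2 and the kinases JAK1 and TYK2. These kinases activate STAT proteins, and STAT2 joins IRF9 in the complex ISGF3. ISGF3 enters the nucleus and binds the interferon-stimulated response element (ISRE) in the promoters of a large gene set whose products block viral translation, RNA replication or budding. In lung these genes are expressed at a low level without infection, in epithelium, endothelium, macrophages and monocytes, through small amounts of tonic interferon.

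The ISRE is what many of these genes share in sequence, so promoter windows that hold its letters are shown first. RefSeq windows (GRCm38.p6) from 250 bases before to 50 after the start site were searched on both strands for GAAANNGAAA, the ISRE core, and for TTCNNNGAA, the core of the gamma-activated site (GAS). Of the 48 members, 36 matched a window, and 17 of these 36 (47.2%) held the ISRE letters, against 3.99% of 27025 genes in the table and 3.83% of the 12718 tested genes that matched. The gamma-activated letters were in 7 of the 36 (19.4%) against 9.55% of all genes, and the 2 patterns share bases in Bst2 and Ifitm3. No window matched for Dhx58, Ifi204, Ifi27, Ifi27l2a, Mx1, Mx2, Oas2, Parp14, Parp9, Rtp4, Usp18 and Zbp1. A match is only a run of letters, not a measured site. The 6 members below have the smallest p in the 5 planned comparisons among those with ISRE letters before the start site, and Isg15 was added after its values were seen because 3 copies overlap in it. Capitals mark the ISRE letters, on either strand.
Ifi203 chr1:173942493-173942567 minus strand: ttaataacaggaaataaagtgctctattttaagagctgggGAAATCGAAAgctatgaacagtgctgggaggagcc
Slfn5 chr11:82951907-82951996 plus strand: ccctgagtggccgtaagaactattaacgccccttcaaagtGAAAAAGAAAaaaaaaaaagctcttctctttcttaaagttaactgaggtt
Rsad2 chr12:26456523-26456612 minus strand: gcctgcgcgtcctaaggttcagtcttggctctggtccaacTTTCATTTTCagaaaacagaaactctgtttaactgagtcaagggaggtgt
Stat2 chr10:128270248-128270325 plus strand: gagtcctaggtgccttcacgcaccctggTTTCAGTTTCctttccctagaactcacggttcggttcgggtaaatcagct
Ifit3 chr19:34583333-34583456 plus strand: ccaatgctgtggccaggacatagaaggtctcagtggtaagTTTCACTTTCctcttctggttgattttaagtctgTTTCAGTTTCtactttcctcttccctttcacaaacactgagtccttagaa
Ddx60 chr8:61927994-61928086 plus strand: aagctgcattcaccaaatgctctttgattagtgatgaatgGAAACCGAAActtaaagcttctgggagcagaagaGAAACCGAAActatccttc
Isg15 chr4:156200835-156200936 minus strand: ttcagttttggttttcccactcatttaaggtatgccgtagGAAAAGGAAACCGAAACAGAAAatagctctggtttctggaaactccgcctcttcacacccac

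Counted from the start site, the letters lie at -35 to -26 in Ifi203, at -155 to -146 in Slfn5, at -120 to -111 in Rsad2 and at -222 to -213 in Stat2. Ifit3 and Ddx60 hold 2 copies each, and Isg15 holds 3 that overlap between -78 and -57. Members with and without the letters were both found among the genes that were lower in the comparisons below. Averaged over the diets, 7 of 17 members with the letters and 14 of 19 without them were lower after ozone, against 16.9% of all genes. Averaged over the exposures, 7 of 17 with and 8 of 19 without were lower on the DHA diet, against 3.87% of all genes. Of the 12 members with no window, 5 were lower in each of these 2 averaged comparisons.

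At the top of the pathway, almost no interferon transcript was counted. Of 21 ligand genes none passed the filter. Ifng, the type II interferon of T and NK cells, had 137 counts over all 24 libraries, Ifnk 18 and Ifnz 15, Ifnab 3, Ifnb1, Ifna13 and Ifna14 2 each, Ifna15 1, and the other 13 (Ifna1, Ifna11, Ifna12, Ifna16, Ifna2, Ifna4, Ifna5, Ifna6, Ifna7, Ifna9, Ifne, Ifnl2, Ifnl3) were at 0. No difference in the ligands was detectable at this depth. The receptor and signalling genes described next all passed. Tyk2, the kinase bound to IFNAR1, fell after ozone to 0.861-fold on the control diet (adjusted p 0.00469) and to 0.856-fold on the DHA diet (adjusted p 0.00223). Ifnlr1, the type III interferon receptor of epithelium, fell to 0.859-fold and 0.805-fold. Socs3, a feedback inhibitor of cytokine receptors that many cytokines induce, rose to 1.48-fold and 1.62-fold. Ifnar1 fell after ozone on the DHA diet (0.925-fold, adjusted p 0.0339). None of Ifnar2, Il10rb, Ifngr1, Ifngr2, Jak1, Jak2, Socs1, Pias1 and Ptpn6 was called in the 4 pairwise comparisons.

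After ozone on the control diet, 12 of the 48 members were lower and 1 was higher. Transcripts of Rsad2, the antiviral enzyme viperin, fell to 0.632-fold and those of Stat2, the interferon-specific STAT, to 0.777-fold, while Ifit3, which binds viral RNA with Ifit1, rose to 1.28-fold. These 12 of 48 lower and 1 higher were called by edgeR's quasi-likelihood test at a Benjamini-Hochberg adjusted p under 0.05 over all genes, where 7.87% of all genes tested were called lower and 8.93% higher. The 12 were Rsad2, Oas2, Irf9, Stat2, Cmpk2, Parp14, Trim25, Ifi203, Sp100, Slfn5, Rnf213 and Helz2, at 0.591-fold to 0.918-fold. The median log2 fold change of the members was -0.17, against -0.0055 over all genes tested, and 42 of 48 were below 0. For 10 members every ozone library was below every air library, a state that 3.26% of all genes reached, and for Ifit3 every ozone library was above (4.5% of all genes). The call count rested in part on single libraries: 7 members were called lower without library 3 of control-diet ozone, where 6.68% of all genes were. Without control-diet air libraries 1 to 3, 5 were called lower (Stat2, Cmpk2, Ifi27, Ifi203 and Slfn5), against 5.79% of all genes, at a member median of -0.18. Without libraries 4 to 6 Ifit3 was no longer called.

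After ozone on the DHA diet 20 members were lower, with Ifi203, a DNA-binding IFI200 protein, falling to 0.656-fold and Ifi44, an interferon-induced antiviral gene, to 0.621-fold. Of the 48 members, 20 (41.7%) were called lower and 0 higher, against 11% of all genes lower and 12.7% higher. No member came under the higher calls at an unadjusted p under 0.05 either. The 20 were 11 of the 12 called on the control diet (all but Oas2) with Ifi44, Mx2, Trim30a, Rtp4, Phf11d, Ddx60, Samd9l, Slfn8 and Adar. These 11 make up 91.7% of the first list and 55.0% of the second. The 2 ozone comparisons share no library but come from 1 fit over all 24 libraries. The matching overlap over all genes was not counted, so these shares are a description. The median log2 fold change was -0.22 (all genes -0.011) and 45 of 48 were below 0. Groups did not overlap for 3 members, Trim25, Ifi203 and Slfn5, all lower, against 3.89% of all genes lower and 5.14% higher. Library 1 of DHA-diet air was the highest of its group for 38 of 48 members. It was also the highest of its group in summed B cell (315 CPM) and NK cell (87.1 CPM) markers and the leukocyte marker Ptprc (122 CPM). By a narrow margin it was the highest in plasmacytoid dendritic cell markers (289.8 CPM, against 286.4 in library 2). The same held for classical monocyte markers (82.6 CPM, against 80.0 in library 4). It was not the highest in T cell (53.1 CPM), neutrophil (54.8 CPM), nonclassical monocyte (798 CPM) or alveolar macrophage markers (399.6 CPM). The part of these cells was not tested. Without this library 15 members were called lower, against 8.7% of all genes, at a member median of -0.15. Rsad2, Trim30a, Phf11d, Slfn8 and Adar were then no longer called (adjusted p 0.0508 for Rsad2). Without DHA-diet ozone libraries 1 and 2, which held the most neutrophil transcripts, 12 were called lower, against 10.2% of all genes, with a member median of -0.18.

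**Figure D1:**
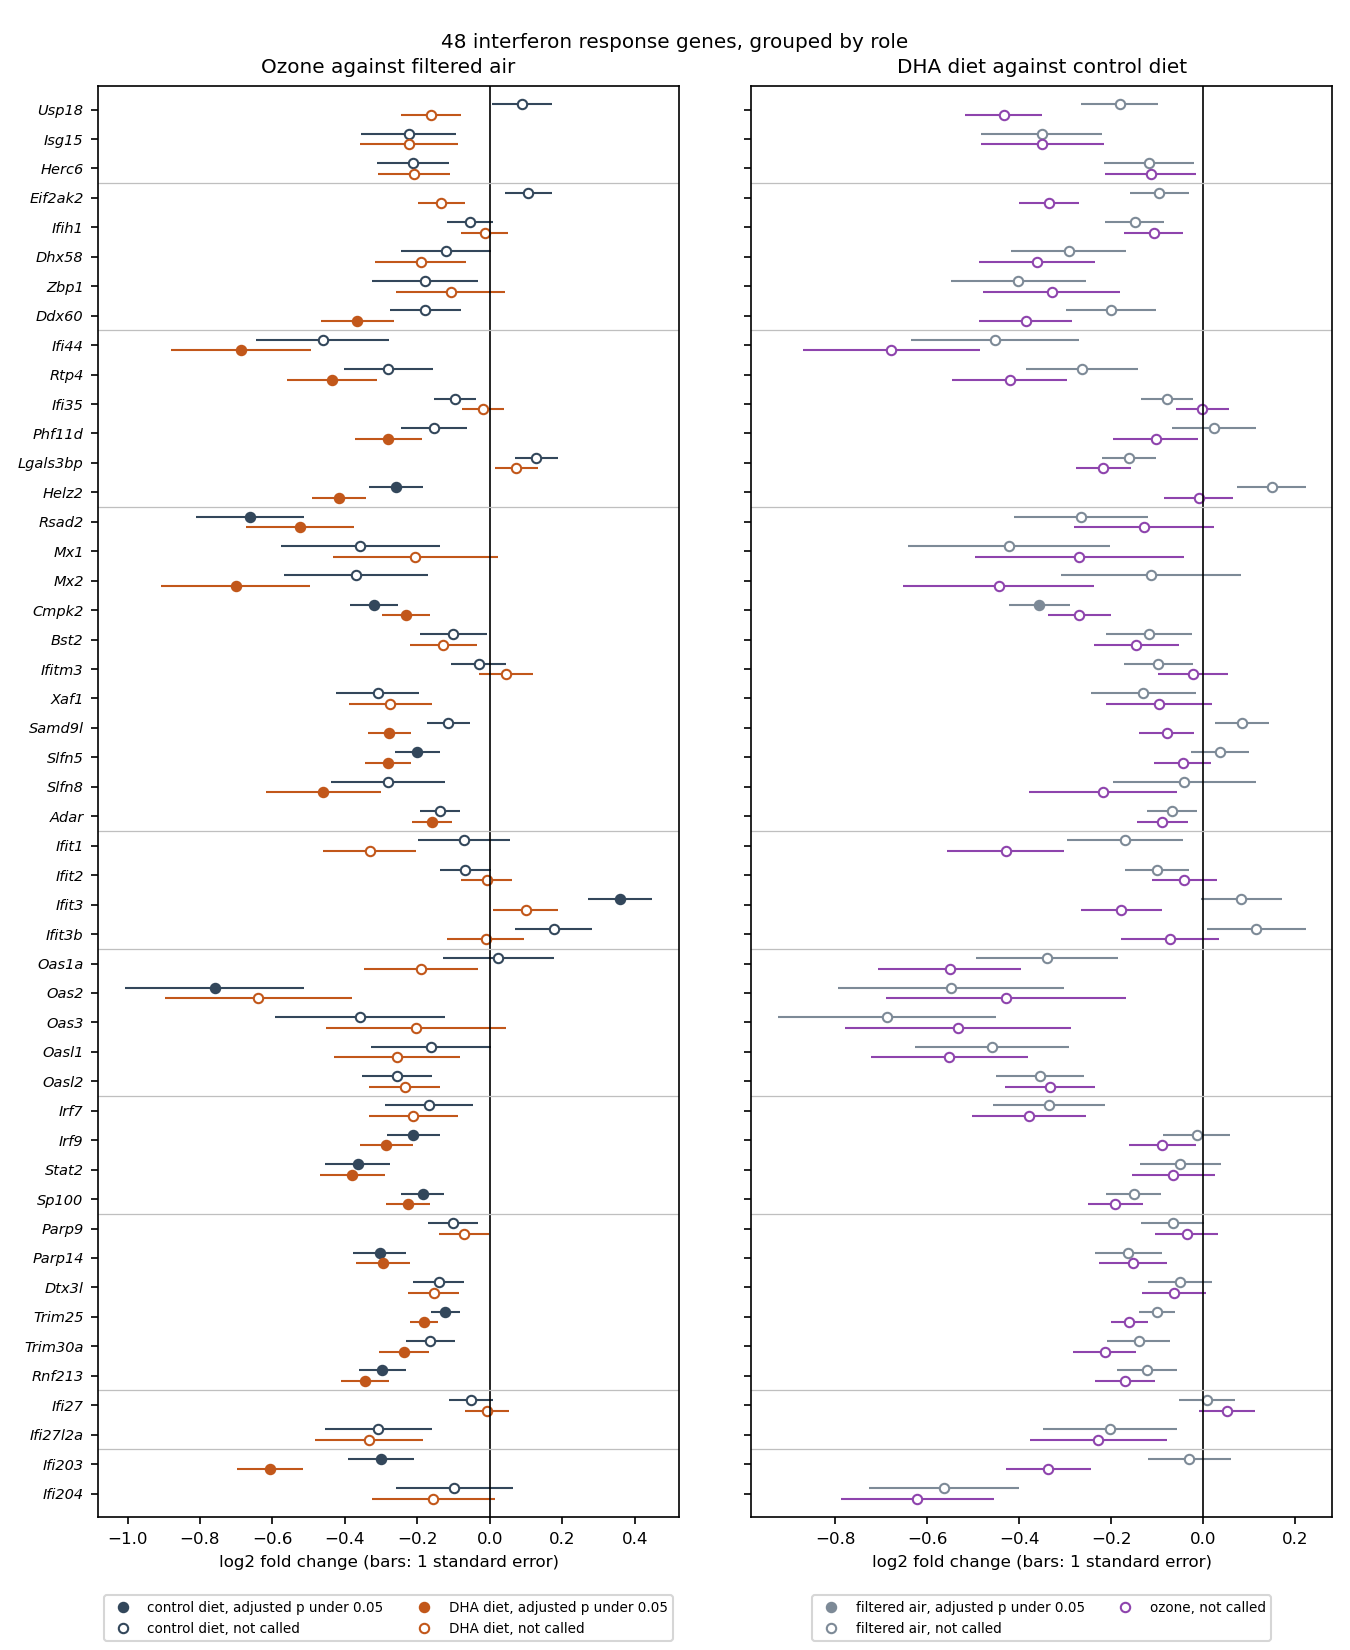
Fitted log2 fold change of each of the 48 members, with 1 standard error as bars, for ozone against filtered air on each diet (left) and the DHA against the control diet in each exposure (right), with roles separated by grey lines and filled points for adjusted p under 0.05. After ozone 42 members on the control diet and 45 on the DHA diet lie left of 0, and Ifit3 on the control diet is the filled point to the right.

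With the diets weighed equally, in a comparison added from the same fit after values were seen, 26 of 48 members (54.2%) were called lower after ozone and 1 higher (Ifit3), against 16.9% of all genes lower, 18.5% higher and 35.4% either way. The median was -0.21 (all genes -0.012) and the called folds ran from 0.616 to 0.902. By role, 3 of 4 transcription factors, 5 of 6 ligases and PARPs, 8 of 11 effectors of the MX and RSAD2 group and 4 of 6 other interferon-induced genes were lower, and 2 of 5 OAS genes, 1 of 3 of the ISG15 system, 1 of 5 sensors and kinases and 0 of 4 IFIT genes. Leaving out any 1 library left 26 to 29 members called lower.

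The DHA diet was compared with the control diet separately in each exposure. In filtered air, 1 of 48 members was called lower and 0 higher, against 0.427% of all genes lower, 0.724% higher and 1.15% either way: Cmpk2, a mitochondrial nucleotide kinase, at 0.781-fold (log2 -0.36, SE 0.07, adjusted p 0.00976). The median of the members was -0.14 (all genes 0.0043), 41 of 48 were below 0, and 20, all lower, reached an unadjusted p under 0.05, as did 1431 genes of the 16153 in that direction. Cmpk2 was also the one member whose groups did not overlap, against 0.563% of all genes lower and 1.29% higher. When DHA-diet air library 1 was left out, the one high in most members, 9 were called lower: Cmpk2, Isg15, Oas2, Oas3, Oasl2, Irf7, Zbp1, Trim30a and Sp100, at a member median of -0.20, where 0.296% of all genes were called lower. Without control-diet air libraries 1 to 3, 0 were called (median -0.12), and without libraries 4 to 6, 4 were called, Cmpk2, Oasl2, Parp14 and Lgals3bp, in a fit that called 5.45% of all genes lower. DESeq2 called 3, Cmpk2, Oasl2 and Ifi204 (1.84% of all genes lower), and edgeR without DHA-diet ozone libraries 1 and 2 called the same 3 (2.47% of all genes lower).

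After ozone, 47 of 48 members had a lower fitted level on the DHA than on the control diet, with a median of -0.20 (all genes 0.0054), and none was called. No gene of the 16153 was called in this comparison by edgeR (0%), while 24 of the 48 members, all lower, reached an unadjusted p under 0.05, as did 1136 genes of the table in that direction. DESeq2 called 4 members lower, Usp18, Eif2ak2, Cmpk2 and Trim25, among 34 lower of the 16822 genes it tested. For 8 members every DHA-diet ozone library was below every control-diet ozone library: Eif2ak2, Ifit1, Trim25, Trim30a, Ifi203, Ddx60, Sp100 and Rnf213, a state that 0.495% of all genes reached in that direction. The 3 members of smallest p were Usp18 (0.740-fold, log2 -0.43, SE 0.08, adjusted p 0.0793), Eif2ak2 (0.793-fold, log2 -0.34, SE 0.06, adjusted p 0.0793) and Trim25 (0.895-fold, log2 -0.16, SE 0.04, adjusted p 0.125). Without DHA-diet ozone library 2, 4 members were called lower, Usp18, Eif2ak2, Trim25 and Ddx60, where 0.45% of all genes were. Usp18 and Eif2ak2 were also called without control-diet air library 6, control-diet ozone library 5 or DHA-diet ozone library 5, and without control-diet air libraries 4 to 6 together. In that order, these fits called 0.037%, 0.0431%, 0.0369% and 0.0912% of all genes lower.

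With the exposures weighed equally, also added after values were seen, 20 of 48 members (41.7%) were called lower on the DHA diet and 0 higher, against 3.87% of all genes lower and 3.19% higher, with a median of -0.17 (all genes 0.0061) and 44 of 48 below 0. This count rested on control-diet air libraries 1 to 3: without them 1 member, Cmpk2, was called (log2 -0.30, adjusted p 0.0228), as were 4 genes of the whole table in that direction in place of 625. The members' median without these libraries was -0.16, with 44 of 48 below 0. Without libraries 4 to 6 instead, 23 were called lower, in a fit that called 8% of all genes lower. By role, 4 of 5 OAS genes, 4 of 5 sensors and kinases, 2 of 3 of the ISG15 system and 2 of 4 transcription factors were lower on the DHA diet, against 1 of 11 MX, RSAD2 and other effectors, 1 of 4 IFIT genes and 2 of 6 ligases and PARPs. The 2 averaged comparisons draw on the same 24 libraries, so their lists are given side by side and their overlap is not a result.

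The diet by ozone interaction, which tests whether the ozone difference itself differs between the diets, called 0 of 48 members and 0 of 16153 genes (0%), and 4 members had an unadjusted p under 0.05, against 988 genes of the table. DESeq2 called 2 genes of the whole table. The interaction was smallest in p for Eif2ak2 (log2 -0.24, SE 0.09, unadjusted p 0.0144), Ifi203 (-0.31, SE 0.13, unadjusted p 0.0249) and Usp18 (-0.25, SE 0.12, unadjusted p 0.0417). The longer list of ozone calls on the DHA diet is therefore not shown to be a larger response. The members' median interaction of -0.046 changed sign, to 0.028, without DHA-diet air library 1.

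Among the transcription factors, Stat2 and Irf9, the ISGF3 subunits, were called lower after ozone on both diets and in no diet comparison. Stat2 (chromosome 10, bases 128106367 to 128128723 in the deposited mm39 coordinates) ran from 48.8 to 66.0 CPM (median 53.5) in control-diet air and from 38.3 to 47.6 CPM (median 43.3) in control-diet ozone, with every ozone library below every air library. On the DHA diet it ran from 45.9 to 65.3 CPM (median 50.8) in air and from 37.7 to 45.9 CPM (median 41.0) after ozone, where the groups overlapped slightly. The ozone difference was 0.777-fold (log2 -0.36, SE 0.09, adjusted p 0.00582) on the control diet and 0.769-fold (log2 -0.38, SE 0.09, adjusted p 0.00287) on the DHA diet. Between the diets, Stat2 differed by log2 -0.05 (SE 0.09) in air and -0.06 (SE 0.09) after ozone. Irf9 averaged 53.6 ± 3.26 CPM in air and 46.3 ± 3.43 after ozone on the control diet, against 53.1 ± 7.77 in air and 43.6 ± 3.08 after ozone on DHA (mean ± SD, n = 6), and fell with ozone to 0.864-fold on the control diet and 0.820-fold on the DHA diet, with overlapping groups. Its control-diet call (adjusted p 0.0469) was lost in 12 of 24 fits that each left out 1 library, at adjusted p up to 0.0954. Sp100, a component of nuclear bodies, averaged 95.5 ± 3.54 CPM in air and 84.0 ± 3.86 after ozone on the control diet, against 86.0 ± 11.2 in air and 73.6 ± 3.72 after ozone on DHA, and was lower after ozone on both diets (0.880-fold and 0.855-fold). Its control-diet call was lost without any one of 7 libraries, control-diet air 1, 3 or 4 or control-diet ozone 1, 3, 4 or 6.

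Irf7, the factor that drives interferon-alpha genes, was called in the averaged diet comparison and in no ozone comparison. It ran from 21.3 to 24.4 CPM (median 23.5) in air and 17.8 to 25.2 CPM (median 20.04) after ozone on the control diet, and from 14.9 to 25.8 CPM (median 16.9) in air and 12.8 to 22.1 CPM (median 15.3) after ozone on DHA. Control-diet air libraries were the tightest and 1 DHA-diet air library, number 1, stood above all of them. Its ozone differences, log2 -0.17 and -0.21, were not called, and its diet difference averaged over exposures was 0.781-fold (log2 -0.36, SE 0.09, adjusted p 0.0179).

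**Figure D2:**
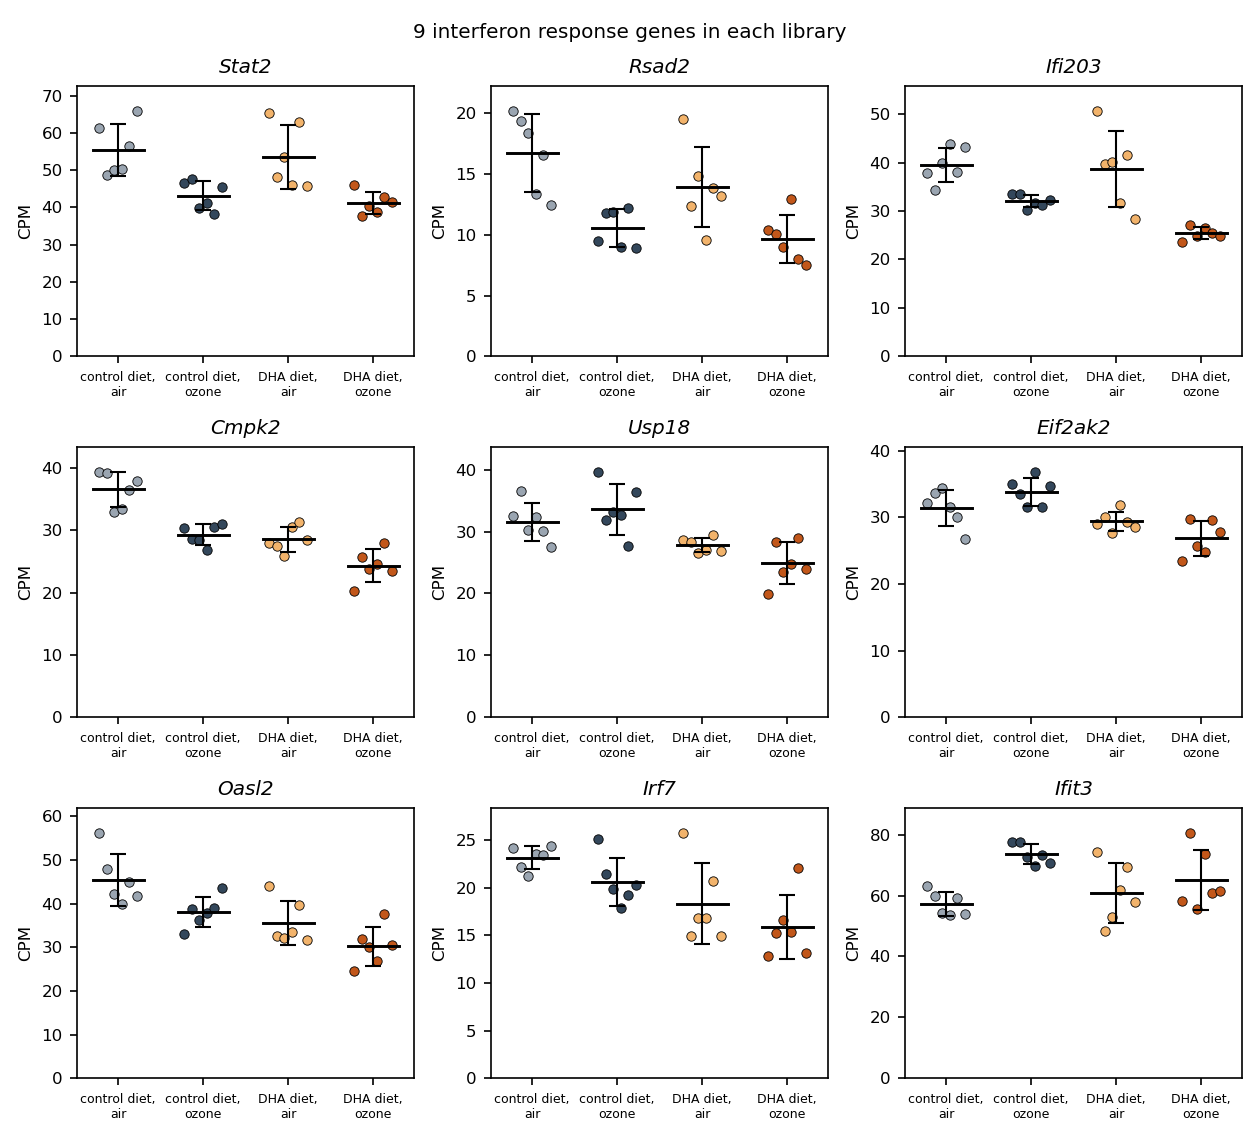
Level in CPM of 9 members in each of the 24 libraries, with the group mean as a horizontal bar and 1 SD as the error bar. Stat2, Rsad2 and Cmpk2 are lower in the control-diet ozone libraries than in every control-diet air library, Usp18 and Eif2ak2 have their lowest group mean in DHA-diet ozone, and Ifit3 is higher in all 6 control-diet ozone libraries than in control-diet air.

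In the ISG15 system, Isg15 encodes a ubiquitin-like modifier, Usp18 removes it from proteins and also blocks receptor signalling, and Herc6 is its mouse ligase. Usp18 (chromosome 6, bases 121222865 to 121247877, mm39) ran from 27.5 to 36.5 CPM (median 31.3) in air and 27.7 to 39.7 CPM (median 33.0) after ozone on the control diet, and from 26.5 to 29.4 CPM (median 27.6) in air and 19.9 to 29.0 CPM (median 24.3) after ozone on DHA. The 2 ozone groups overlapped in range: the lowest control-diet library lay below the highest DHA-diet libraries. Averaged over exposures Usp18 was 0.808-fold (log2 -0.31, SE 0.06, adjusted p 0.00628) on the DHA diet, while its ozone differences were log2 0.09 and -0.16. Isg15 ran from 13.9 to 20.4 CPM (median 17.02) in air and 10.8 to 17.2 CPM (median 14.9) after ozone on the control diet, and from 10.2 to 20.01 CPM (median 12.8) in air and 9.44 to 13.6 CPM (median 11.04) after ozone on DHA. It was 0.784-fold (log2 -0.35, SE 0.09, adjusted p 0.0258) on the DHA diet averaged over exposures, and DHA-diet air library 1, at 20.01 CPM, stood apart from the other 5 of its group. Herc6 was called only in the averaged ozone comparison (0.864-fold, log2 -0.21, SE 0.07, adjusted p 0.0203).

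Among the sensors and kinases, Eif2ak2, the kinase PKR that stops translation when it binds double-stranded RNA, ran from 26.7 to 34.5 CPM (median 31.8) in air and 31.5 to 36.9 CPM (median 34.0) after ozone on the control diet, and from 27.7 to 31.9 CPM (median 29.2) in air and 23.5 to 29.8 CPM (median 26.7) after ozone on DHA. Every DHA-diet ozone library was below every control-diet ozone library, while the air groups overlapped. Ddx60, a helicase that aids RNA sensing, averaged 7.48 ± 0.872 CPM in air and 6.61 ± 0.223 after ozone on the control diet, against 6.52 ± 0.849 in air and 5.07 ± 0.631 after ozone on DHA. Its ozone difference on the DHA diet was 0.776-fold (log2 -0.37, SE 0.10, adjusted p 0.00915). Dhx58 and Zbp1, which sense double-stranded RNA and Z-form nucleic acid, were lower on the DHA diet averaged over exposures (0.797-fold and 0.776-fold, adjusted p 0.0271 and 0.0347), and Zbp1 lost its call in 12 of 24 fits without 1 library. Dhx58 lost its call without control-diet air library 1 (adjusted p 0.0557). Ifih1, the sensor MDA5, had ozone differences of log2 -0.06 and -0.01 and was called in no comparison.

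The OAS family makes short oligoadenylates, which switch on RNase L, and Oasl1 and Oasl2 are its relatives. Oas2 ran from 6.82 to 9.55 CPM (median 7.68) in air and 3.33 to 7.34 CPM (median 4.33) after ozone on the control diet, and from 3.32 to 11.51 CPM (median 3.79) in air and 2.16 to 4.46 CPM (median 3.43) after ozone on DHA. It was 0.591-fold (log2 -0.76, SE 0.25, adjusted p 0.0353) after ozone on the control diet, and 2 of the DHA-diet air libraries, up to 11.51 CPM, reached the control-diet air range while the other 4 did not. The control-diet call was lost in 8 of 24 fits without 1 library (adjusted p up to 0.0799). Oasl2 ran from 39.9 to 56.3 CPM (median 43.6) in air and 33.1 to 43.6 CPM (median 38.3) after ozone on the control diet, and from 31.7 to 43.9 CPM (median 33.0) in air and 24.6 to 37.6 CPM (median 30.3) after ozone on DHA, and was the one OAS gene besides Oas2 called in the averaged ozone comparison (0.843-fold, log2 -0.25, SE 0.07, adjusted p 0.00629). On the DHA diet averaged over exposures, Oasl2 was 0.788-fold (log2 -0.34, SE 0.07, adjusted p 0.00703), Oasl1 0.705-fold, Oas1a 0.734-fold and Oas3 0.655-fold. Oas1a reads may be shared with near-identical paralogs such as Oas1g, so its level is uncertain.

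Rsad2 and Cmpk2 are neighbours, at chromosome 12, bases 26492742 to 26506452 and chromosome 12, bases 26519214 to 26529837 (mm39), and Cmpk2 supplies nucleotide for the chain terminator that viperin makes. Rsad2 ran from 12.4 to 20.2 CPM (median 17.48) in air and 8.92 to 12.2 CPM (median 10.6) after ozone on the control diet, and from 9.56 to 19.5 CPM (median 13.5) in air and 7.54 to 12.9 CPM (median 9.55) after ozone on DHA. On the control diet no ozone library reached the air range, and the difference was 0.632-fold (log2 -0.66, SE 0.15, adjusted p 0.00313). On the DHA diet the groups overlapped, at 0.695-fold (log2 -0.52, SE 0.15, adjusted p 0.0122). Cmpk2 ran from 32.9 to 39.5 CPM (median 37.2) in air and 26.8 to 31.1 CPM (median 29.6) after ozone on the control diet, and from 25.9 to 31.3 CPM (median 28.2) in air and 20.3 to 28.1 CPM (median 24.3) after ozone on DHA. The control-diet air libraries lay above all 3 other groups, and DHA-diet ozone was the lowest group by mean. Cmpk2 was lower with ozone on both diets (log2 -0.32 and -0.23) and on the DHA diet in air (log2 -0.36). The DHA-diet difference after ozone was log2 -0.27 (SE 0.07, adjusted p 0.135). Without control-diet air libraries 1 to 3, Rsad2 was not called on the control diet, and Cmpk2 remained called there (log2 -0.30, adjusted p 0.0171).

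Of 11 effectors, 8 were lower in the averaged ozone comparison, against 16.9% of all genes. Slfn5, a schlafen protein, ran from 155 to 192 CPM (median 159) in air and 133 to 155 CPM (median 142) after ozone on the control diet, and from 161 to 177 CPM (median 168) in air and 111 to 154 CPM (median 139.9) after ozone on DHA, with no overlap between air and ozone on either diet and DHA-minus-control differences of log2 0.04 and -0.04. It fell with ozone to 0.871-fold and 0.823-fold, and the control-diet call was lost without control-diet air 6 or control-diet ozone 1, 3 or 4. Samd9l, a translation inhibitor, averaged 66.4 ± 2.46 CPM in air and 61.4 ± 1.62 after ozone on the control diet, against 70.4 ± 8.59 in air and 58.1 ± 3.68 after ozone on DHA, and fell on the DHA diet to 0.825-fold. On the control diet its groups did not overlap, yet the test did not call it (0.924-fold, log2 -0.11, SE 0.06, adjusted p 0.196). Mx2, a dynamin-like GTPase, averaged 2.93 ± 0.641 CPM in air and 2.27 ± 0.451 after ozone on the control diet, against 2.71 ± 0.610 in air and 1.66 ± 0.603 after ozone on DHA, with a DHA-diet ozone difference of 0.615-fold (log2 -0.70, SE 0.20, adjusted p 0.0136) and overlapping groups. Slfn8, whose reads may be shared with Slfn9, averaged 7.26 ± 1.16 CPM in air and 5.98 ± 0.886 after ozone on the control diet, against 7.06 ± 1.93 in air and 5.15 ± 1.05 after ozone on DHA, and Adar, the RNA-editing enzyme, averaged 57.3 ± 2.32 CPM in air and 52.1 ± 2.58 after ozone on the control diet, against 54.6 ± 4.35 in air and 48.9 ± 4.16 after ozone on DHA. Both were called lower after ozone on the DHA diet, at 0.727-fold and 0.896-fold, and lost the call in 7 and 6 of 24 fits without 1 library. The envelope-level restriction factors Bst2 and Ifitm3 were called in no comparison, with ozone differences of log2 -0.10 and -0.13 for Bst2 and -0.03 and 0.04 for Ifitm3.

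The IFIT genes, neighbours on chromosome 19, held no member called lower after ozone on either diet. Ifit3 (chromosome 19, bases 34560929 to 34566383, mm39) ran from 53.7 to 63.0 CPM (median 56.8) in air and 69.7 to 77.6 CPM (median 73.0) after ozone on the control diet, and from 48.3 to 74.4 CPM (median 59.9) in air and 55.7 to 80.7 CPM (median 61.1) after ozone on DHA. All 6 control-diet ozone libraries exceeded all 6 control-diet air libraries, at 1.28-fold (log2 0.36, SE 0.09, adjusted p 0.00632), whereas the DHA-diet groups overlapped, at 1.07-fold (log2 0.10, SE 0.09, adjusted p 0.455). The interaction for Ifit3 was log2 -0.26 (SE 0.13, adjusted p 0.813), so a difference between the diets was not shown. Its near-identical neighbour Ifit3b ran from 15.02 to 22.5 CPM (median 17.6) in air and 18.3 to 21.6 CPM (median 20.1) after ozone on the control diet, and from 15.3 to 22.8 CPM (median 19.2) in air and 14.3 to 23.2 CPM (median 19.3) after ozone on DHA, and was not called (log2 0.18 and -0.01 with ozone). Reads can be divided between these copies, so both levels are uncertain. Ifit1, which binds RNA lacking cap methylation, was below every control-diet ozone library in every DHA-diet ozone library (0.742-fold, log2 -0.43, SE 0.13, adjusted p 0.175), a difference that was not called, and its averaged diet call (adjusted p 0.0425) was lost in 16 of 24 fits without 1 library. Ifit2 had ozone differences of log2 -0.07 and -0.01.

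Of the 6 ligases and PARPs, 3 were called lower after ozone on the control diet and 4 on the DHA diet, against 7.87% and 11% of all genes. Parp14, a mono-ADP-ribosyltransferase, ran from 70.5 to 93.6 CPM (median 75.5) in air and 59.1 to 66.0 CPM (median 64.5) after ozone on the control diet, and from 61.5 to 82.1 CPM (median 70.7) in air and 50.8 to 65.6 CPM (median 56.5) after ozone on DHA. It fell to 0.810-fold and 0.815-fold, without overlap on the control diet. Rnf213, a giant ubiquitin ligase, ran from 81.2 to 98.9 CPM (median 86.3) in air and 69.1 to 76.4 CPM (median 71.2) after ozone on the control diet, and from 68.2 to 96.3 CPM (median 79.7) in air and 57.4 to 69.0 CPM (median 65.6) after ozone on DHA. Its ozone differences were 0.814-fold (log2 -0.30, SE 0.06, adjusted p 0.00256) on the control diet and 0.788-fold (log2 -0.34, SE 0.07, adjusted p 0.000437) on the DHA diet. Trim25, which ubiquitinates the sensor RIG-I, ran from 109.7 to 126 CPM (median 113) in air and 101 to 111 CPM (median 105) after ozone on the control diet, and from 104 to 112 CPM (median 106) in air and 89.4 to 99.5 CPM (median 94.2) after ozone on DHA. Its folds were small, 0.918 and 0.882 with ozone, and the DHA-diet ozone libraries lay below all DHA-diet air and all control-diet ozone libraries. Trim25 lost its control-diet call without control-diet air 1 or control-diet ozone 1, 2 or 3. Trim30a averaged 35.8 ± 1.46 CPM in air and 31.9 ± 1.41 after ozone on the control diet, against 32.5 ± 4.97 in air and 27.5 ± 1.16 after ozone on DHA, and fell on the DHA diet to 0.848-fold. Parp9 and its partner Dtx3l share 559 bases in the deposited coordinates, so reads there cannot be told apart without strand. Their ozone differences were log2 -0.10 and -0.07 for Parp9 and -0.14 and -0.16 for Dtx3l.

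The IFI200 proteins bind DNA and regulate transcription. Ifi203 (chromosome 1, bases 173747966 to 173770239, mm39) ran from 34.4 to 43.8 CPM (median 38.9) in air and 30.3 to 33.5 CPM (median 31.9) after ozone on the control diet, and from 28.3 to 50.7 CPM (median 39.9) in air and 23.7 to 27.2 CPM (median 25.2) after ozone on DHA. DHA-diet ozone lay below all libraries of the 3 other groups, and DHA-diet air was the widest group. The ozone difference was 0.812-fold (log2 -0.30, SE 0.09, adjusted p 0.0231) on the control diet, a call lost without control-diet air library 4, and 0.656-fold (log2 -0.61, SE 0.09, adjusted p 4.05e-05) on the DHA diet. Ifi204 ran from 3.94 to 6.40 CPM (median 5.34) in air and 3.47 to 7.32 CPM (median 4.59) after ozone on the control diet, and from 2.78 to 4.23 CPM (median 3.50) in air and 2.54 to 3.93 CPM (median 3.04) after ozone on DHA. It showed no called ozone difference (log2 -0.10 and -0.16) and was 0.663-fold (log2 -0.59, SE 0.12, adjusted p 0.00639) on the DHA diet averaged over exposures. The family's members are similar in sequence, so reads may be divided among them.

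Of the remaining members, Ifi44 ran from 8.52 to 13.7 CPM (median 11.4) in air and 7.11 to 9.44 CPM (median 8.54) after ozone on the control diet, and from 5.38 to 12.2 CPM (median 7.62) in air and 3.39 to 9.10 CPM (median 4.94) after ozone on DHA. DHA-diet ozone library 5, at 9.10 CPM, stood above the other 5 of its group, all at or below 4.97. Ifi44 fell with ozone on the DHA diet (0.621-fold, log2 -0.69, SE 0.19, adjusted p 0.0103). Rtp4, a negative regulator of the response, averaged 28.2 ± 2.72 CPM in air and 23.2 ± 2.74 after ozone on the control diet, against 23.5 ± 4.55 in air and 17.4 ± 3.72 after ozone on DHA, and Phf11d averaged 16.3 ± 1.68 CPM in air and 14.6 ± 1.30 after ozone on the control diet, against 16.5 ± 2.84 in air and 13.6 ± 0.598 after ozone on DHA. They fell after ozone on the DHA diet to 0.739-fold and 0.823-fold, and Phf11d lost its call without DHA-diet air 1, 2 or 5 or DHA-diet ozone 5. Helz2, a helicase and nuclear receptor coactivator, ran from 67.9 to 85.9 CPM (median 79.9) in air and 59.0 to 68.7 CPM (median 65.7) after ozone on the control diet, and from 68.0 to 103 CPM (median 86.6) in air and 57.5 to 75.2 CPM (median 64.4) after ozone on DHA. It was the member with the largest positive diet difference in air (log2 0.15, SE 0.07, adjusted p 0.303), and fell with ozone to 0.836-fold and 0.749-fold. Lgals3bp, a secreted glycoprotein, had positive ozone differences (log2 0.13 and 0.07) that were not called and was 0.877-fold (log2 -0.19, SE 0.04, adjusted p 0.0101) on the DHA diet averaged over exposures. Ifi27 lies within Ifi27l2a in the deposited coordinates, so their reads may be shared. Ifi27 differed by at most log2 0.05 in size in the 4 pairwise comparisons, and Ifi27l2a was lower in the averaged ozone comparison (0.801-fold, adjusted p 0.0179).

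Set over all members, the mean of the 48 gene-centred log2 CPM values was highest in control-diet air and lowest in DHA-diet ozone by group mean. Most groups overlapped. Control-diet air ran from 0.12 to 0.31, control-diet ozone from -0.07 to 0.11, DHA-diet air from -0.16 to 0.33 and DHA-diet ozone from -0.36 to -0.04. Every control-diet air library was above every control-diet ozone and DHA-diet ozone library, while DHA-diet air overlapped all 3 other groups. Group means gave the same picture by gene: DHA-diet ozone had the lowest mean of the 4 groups for 43 of 48 members and the highest for none, and control-diet air had the highest for 37. The 5 members whose lowest group was another were Ifit3, Ifit3b, Ifitm3, Ifi27 and Lgals3bp.

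**Figure D3:**
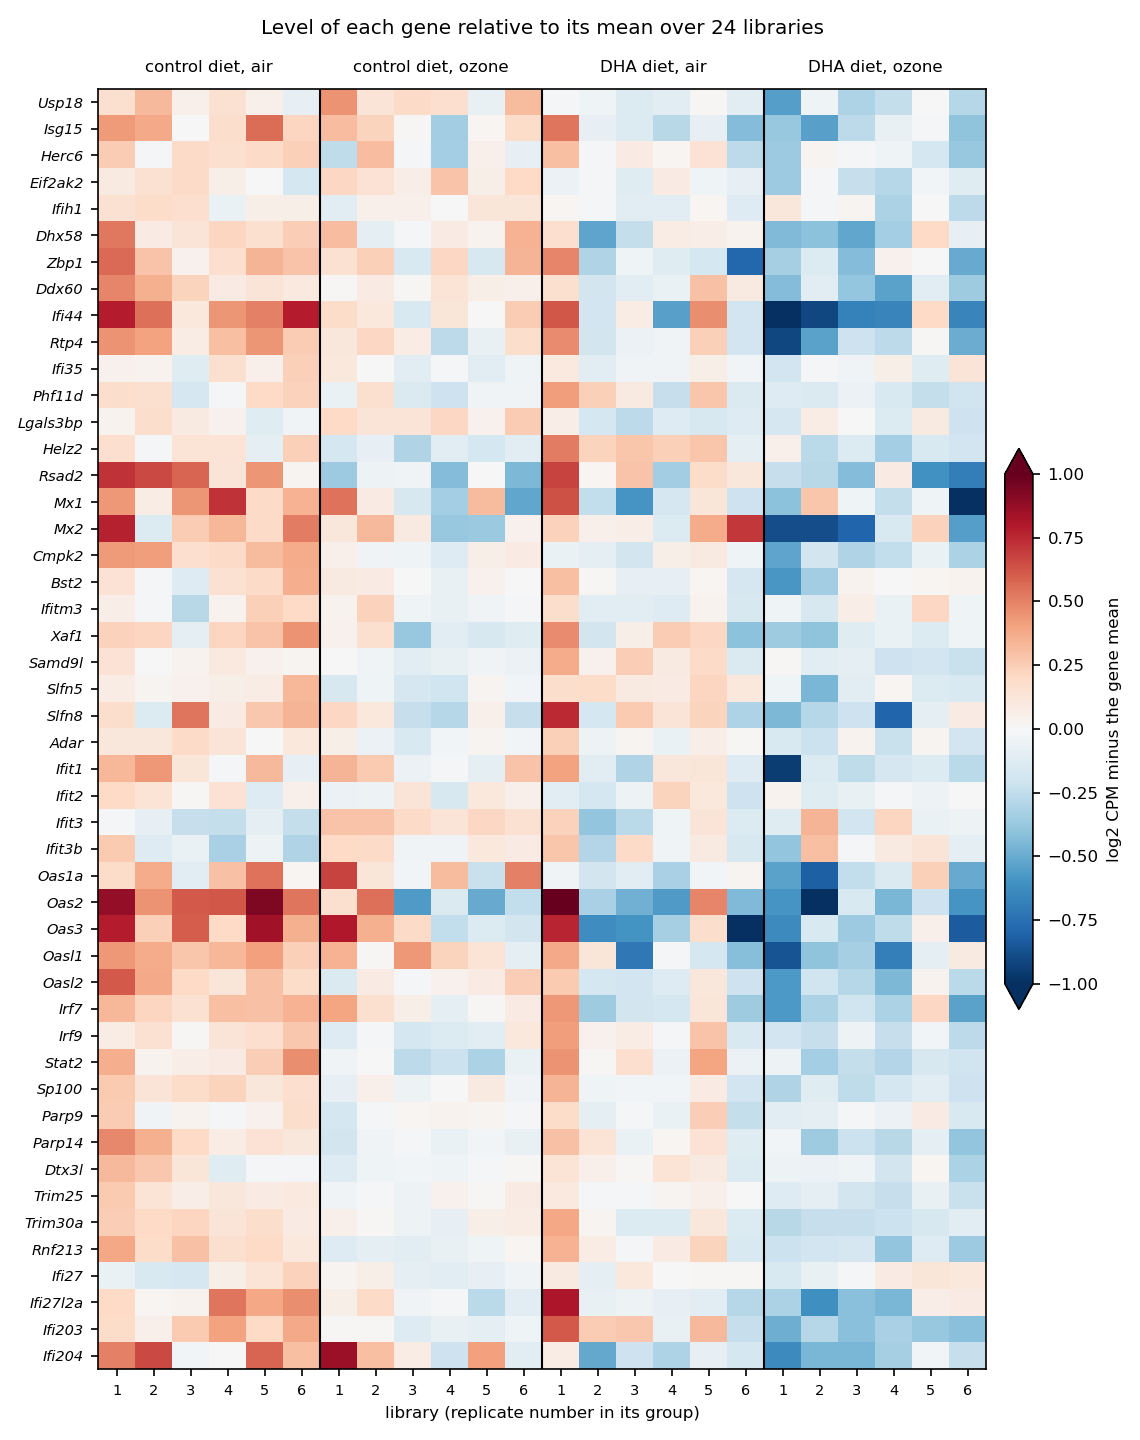
Log2 CPM of each of the 48 members (rows, ordered by role) in each of the 24 libraries (columns, by group and replicate number), minus the gene's mean over all libraries and cut at 1 on either side. DHA-diet air library 1 is the column of high values in its group, with the highest level of 38 of 48 members there.

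Within groups, the members tended to be high or low in the same libraries. After group means were removed, the median correlation over 1128 pairs of members across the 24 libraries was 0.333, against -0.00135 over all pairs of the 16153 genes tested, and 25.1% of member pairs were over 0.5 against 3.47% of all pairs. All pairs share the same libraries and depth, so this is a description. DHA-diet air library 1 adds to these correlations: it was the highest of its group for 38 members. Its mean over the members was 0.33, against a group median of -0.07. The correlations were not computed without this library. Irf7 tracked the mean of the other members most closely (r = 0.919), followed by Rtp4 (0.855) and Oas3 (0.834), and the closest pair was Irf7 with Rtp4 (0.854). Ifit2, Eif2ak2, Slfn5 and Ifih1 tracked it least, at 0.0126, 0.103, 0.128 and 0.133.

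**Figure D4:**
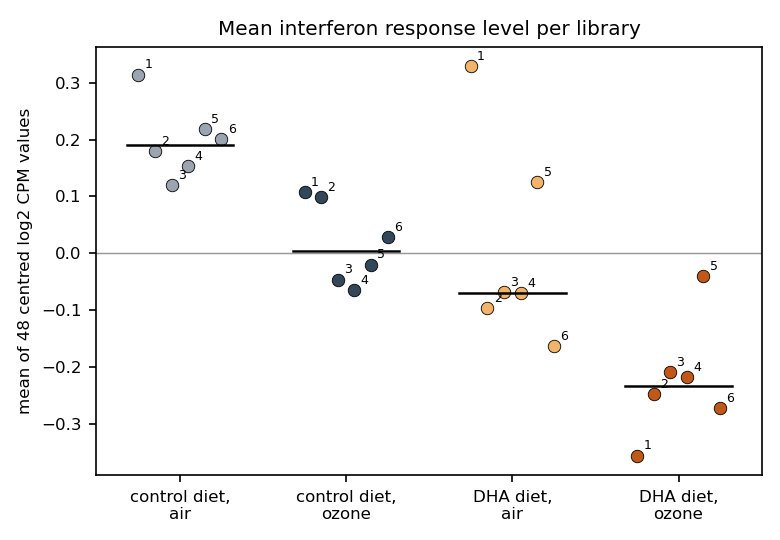
Mean over the 48 members of log2 CPM centred on each gene's mean, 1 point per library labelled with its replicate number, with the group median as a bar. The 6 control-diet air libraries lie between 0.12 and 0.31, and the 6 DHA-diet ozone libraries between -0.36 and -0.04.

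Other genes of the pathway were described from 2 further lists. Of 18 genes of nucleic acid sensing and interferon induction, 4 were lower after ozone on the control diet, Irf3, Ikbke, Ddx58 (the sensor RIG-I) and Irf1, at log2 -0.23, -0.30, -0.17 and -0.22, and none was higher. Of all genes tested, 7.87% were called lower and 8.93% higher there. On the DHA diet 6 of the 18 were lower and 2 higher, against 11% of all genes lower and 12.7% higher. Tlr9 fell by 0.58 on the log2 scale, with Irf1, Ddx58, Tbk1, Mavs and Irf3 also lower, while the adaptors Myd88 and Sting1 rose by 0.26 and 0.28. Ikbke, an IRF-activating kinase, was lower on the DHA diet in air (log2 -0.33). Of 58 other interferon-induced genes, 11 were lower and 1 higher after ozone on the control diet and 17 and 2 on the DHA diet, with medians of -0.12 and -0.11. The shares over all genes were 7.87% lower and 8.93% higher on the control diet, and 11% and 12.7% on the DHA diet. Among those of smallest p were the IFI200 gene Ifi213 (log2 -0.59 and -0.67), Nlrc5, the activator of MHC class I genes (-0.61 and -0.59), Trim12a (-0.32 and -0.27), Gbp4 (-1.12 and -0.99) and Oas1b (-0.40 and -0.51). The chemokine Cxcl10 was the one that rose on the control diet (log2 0.53, adjusted p 0.0364). Uba7, the E1 enzyme for ISG15, fell with ozone on the control diet (log2 -0.33) and was lower on the DHA diet in air (log2 -0.23).

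Markers of cells that could carry these transcripts were read beside the members. All 8 plasmacytoid dendritic cell markers were detected, and their summed level ran from 254 to 285 CPM (median 273) in air and 249 to 281 CPM (median 264) after ozone on the control diet, and from 251 to 289.8 CPM (median 269.7) in air and 222 to 285 CPM (median 256) after ozone on DHA, with 0 of 8 called in either ozone comparison. Their fitted median was negative in both ozone comparisons, log2 -0.10 and -0.21, the same sign as the members. There 6 of 8 were below 0 on the control diet (2 at an unadjusted p under 0.05) and 7 of 8 on the DHA diet (1). In the diet comparisons the median was 0.04 in air and -0.06 after ozone. Nonclassical monocyte markers (7 of 7 detected) ran from 757 to 844 CPM (median 789.6) in air and 747 to 869 CPM (median 781) after ozone on the control diet, and from 732 to 867 CPM (median 807) in air and 697 to 927 CPM (median 778) after ozone on DHA, with 1 of 7 lower after ozone on each diet (Eno3 on the control diet and Treml4 on the DHA diet). Their fitted median was negative in both diet comparisons, log2 -0.12 in air and -0.22 after ozone, with 6 of 7 below 0 in each and 0 called, the same sign as the members. At an unadjusted p under 0.05, 1 of 7 was lower in air, 3 of 7 after ozone and 4 of 7 averaged over the exposures. NK cell markers (7 of 7 detected, 0 called in the 4 pairwise comparisons) ran from 37.7 to 105 CPM (median 52.5) in air and 44.8 to 61.5 CPM (median 49.8) after ozone on the control diet, and from 26.1 to 87.1 CPM (median 50.9) in air and 27.8 to 53.6 CPM (median 48.2) after ozone on DHA. Their fitted median was negative in both ozone comparisons (log2 -0.26 and -0.26) and in both diet comparisons (-0.23 in air and -0.18 after ozone), the same sign as the members. Neutrophil markers (9 of 10 passed the filter) ran from 54.8 to 202 CPM (median 71.1) in air and 60.1 to 171 CPM (median 80.0) after ozone on the control diet, and from 48.9 to 85.2 CPM (median 62.6) in air and 76.9 to 361 CPM (median 96.8) after ozone on DHA, and 7 of 9 rose after ozone on the DHA diet. Classical monocyte markers (6 of 6 detected) ran from 73.6 to 95.7 CPM (median 80.3) in air and 76.5 to 112 CPM (median 82.8) after ozone on the control diet, and from 60.2 to 82.6 CPM (median 76.5) in air and 71.8 to 90.7 CPM (median 78.1) after ozone on DHA. Of these 6, F10 rose after ozone on the control diet, and F10 and Vcan rose on the DHA diet. In each ozone comparison 4 of 6 were fitted above 0 and 2 below. On the DHA diet 1 was lower at an unadjusted p under 0.05. In the diet comparisons the median of these classical monocyte markers was log2 -0.12 in air, with 4 of 6 below 0. It was -0.13 after ozone, with 5 of 6 below 0, and 0 were called in either. At an unadjusted p under 0.05, 1 was lower in air, and 1 was lower and 1 higher after ozone. Alveolar macrophage markers (9 of 9 detected) ran from 397 to 442 CPM (median 412) in air and 501 to 611 CPM (median 529) after ozone on the control diet, and from 382 to 455 CPM (median 411) in air and 498 to 669 CPM (median 544) after ozone on DHA. Their sum was higher in every ozone library than in every air library on both diets, the opposite direction to the members called lower. Single markers were mixed: on each diet 6 of 9 were fitted above 0 and 3 below, with medians of log2 0.27 and 0.05. On the control diet 1 of 9 was lower at an unadjusted p under 0.05. Chil3 and Mrc1 rose after ozone on both diets and the scavenger receptor gene Marco on the DHA diet. Endothelial markers were fitted below 0 after ozone for 6 of 6 on the control diet and 5 of 6 on the DHA diet, with 0 called. T cell markers were below 0 for 6 of 7 on each diet, with 0 called. B cell markers were below 0 for 2 of 6 on the control diet and 6 of 6 on the DHA diet, where 1 was called lower. The leukocyte marker Ptprc had ozone differences of log2 -0.08 on the control diet and -0.18 on the DHA diet. Its diet differences were 0.04 in air and -0.06 after ozone, and none of the 4 was called. Of all genes tested, 7.87% were called lower and 8.93% higher after ozone on the control diet, and 11% and 12.7% on the DHA diet. The part of these cell types in the member results was not tested.

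Alveolar type 2 cell markers moved with diet as well: they ran from 22558 to 33966 CPM (median 25684) in air and 31399 to 32842 CPM (median 31959) after ozone on the control diet, and from 31952 to 35235 CPM (median 33601) in air and 33452 to 36802 CPM (median 34419) after ozone on DHA, with 4 of 6 called higher after ozone on the control diet and 3 of 6 on the DHA diet in air. Of all genes, 8.93% and 0.724% were called higher in these 2 comparisons. By median, control-diet air was the group lowest in type 2 cell transcripts and highest in the mean of the members. Adipocyte markers ran from 76.9 to 122 CPM (median 96.4) in air and 50.2 to 95.5 CPM (median 68.2) after ozone on the control diet, and from 42.0 to 109 CPM (median 61.0) in air and 52.4 to 78.0 CPM (median 64.4) after ozone on DHA, with all 5 fitted lower on the DHA diet in air (median log2 -0.60, 0 called). In that diet comparison all 5 reached an unadjusted p under 0.05. After ozone on the control diet all 5 adipocyte markers were fitted below 0 (median log2 -0.52), 3 at that p, with 0 called. After ozone on the DHA diet 3 were above 0 and 2 below (median 0.02). Between the diets after ozone 2 were above 0 and 3 below (median -0.06). The part of these cells was not tested.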

How the data were processed

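RNA-seq counts per gene of 24 lung libraries, 6 in each of 4 groups of diet and exposure, were analysed. The deposited values are raw read counts per gene with no normalization. Per the submitters' processing notes, Partek, STAR, HTSeq and the mm39 build were used. Their versions, the annotation and the strand setting used in counting are not given in the sources, and without strand, reads of overlapping genes cannot be told apart. The largest gene, Scgb1a1, took 5.51 to 12.3% of counts. Library totals of 18053493 to 26225630 counts limit precision for low members.

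Groups came from the sample titles. Low genes were removed by filterByExpr using the 4 groups (at least 10 counts, at least 15 in total), leaving 16153. Counts were scaled by TMM and fitted with edgeR 4.0.16 (R 4.3.3) in quasi-likelihood models of 1 mean per group over all 24 libraries, with 20 residual degrees of freedom, and p-values were adjusted by Benjamini-Hochberg over all genes tested, with calls at 0.05. CPM used TMM-scaled totals, and log2 CPM a prior count of 2. Folds are the fitted log2 changes put on a linear scale. Standard errors are the log2 change divided by the root of F. The script was tested on simulated counts: with 50 genes changed at each size, the control-diet ozone fit recovered 40% of 1.25-fold and 62% of 1.5-fold changes. The fit of DHA after ozone recovered 44% and 74%, and the interaction fit 32% and 58%. The changed genes were drawn at random from all genes tested, and far fewer were changed than the 2713 that the real control-diet ozone fit called. These shares therefore do not give the sensitivity of the real ozone fits or of the members.

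The 48 members, their roles, the gene lists and markers were chosen with earlier results of these data known, and lists were written from general knowledge. The 2 averaged comparisons and the fits without control-diet air libraries 1 to 3 or 4 to 6, or DHA-diet ozone 1 and 2, were added after values were seen. Members called in any of the 5 planned comparisons were named with values, the 3 of smallest p where none was called, and of other lists up to 8 called genes by smallest p; other members, those that lead the averaged comparisons included, were named after their values were seen. Libraries of one group differed beyond sampling noise (chi-square per degree of freedom 4.71 to 59.8 over 60 pairs). Alternatives were RLE scaling, library totals, no filter, a replicate block, DESeq2 1.42.0, the 2 groups alone and leaving out each library. Promoter windows came from RefSeq (GRCm38.p6); no coordinates were converted between builds. One gene of the receptor and signalling list is not reported here, so no count over that list is given.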

Additional observations from a re-analysis of the deposited data

Results flagged for a closer look

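Within each group of 6, a library is named here when its gap to the nearest other library, divided by the group's range, passed Dixon's 95% value. Of 192 combinations of member and group, 11 (5.73%) did, about the 1 in 20 that chance gives. DHA-diet air library 1 was the highest of its group for Isg15 (20.01 CPM), Bst2 (128 CPM) and Ifi27l2a (50.4 CPM). Control-diet air library 1 was the highest for Dhx58 (11.998 CPM) and Trim25 (126 CPM), and library 6 for Slfn5 (192 CPM). Control-diet ozone library 1 was the lowest for Parp9 (33.5 CPM) and Parp14 (59.1 CPM), and library 2 the highest for Ifitm3 (334 CPM). In DHA-diet ozone, library 1 was the lowest for Ifit1 (9.09 CPM) and library 5 the highest for Ifi44 (9.10 CPM).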

How the results depend on the processing

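Members called lower after ozone on the control diet numbered 12, and 7 to 17 when 1 library was left out, 5 without control-diet air libraries 1 to 3, while the 1 member called higher became 0 without libraries 4 to 6. On the DHA diet the 20 members called lower became 15 to 22 without 1 library and 12 without DHA-diet ozone 1 and 2. Without 1 library, the share of all genes called lower after ozone ran from 5.8% to 9.56% on the control diet. On the DHA diet it ran from 8.55% to 11.3%. For DHA against control diet in air, the 1 member called lower became 1 to 9 without 1 library, 3 with DESeq2, 0 without control-diet air 1 to 3, 4 without 4 to 6 and 3 without DHA-diet ozone 1 and 2. The share of all genes called lower was 0.074% to 2.71% without 1 library and 1.84% with DESeq2. It was 0%, 5.45% and 2.47% in the last 3 fits. After ozone, the 0 members became 0 to 4 without 1 library, 4 with DESeq2, 1 with the 2 groups alone and 2 without control-diet air 4 to 6. Of all genes, 0% to 0.45%, 0.202%, 0.00636% and 0.0912% were called lower in these fits. Averaged over the diets, 1 to 2 members were called higher without 1 library and 2 without control-diet air 1 to 3. Averaged over the exposures, 20 members lower became 15 to 25 without 1 library and 1 without control-diet air 1 to 3. The share of all genes called lower was 1.86% to 5.86% without 1 library and 0.0244% without control-diet air 1 to 3. The cause was not tested, and 3 fewer libraries were in that last fit. The median interaction of the members of -0.046 ran from -0.079 to 0.028 without 1 library, positive only without DHA-diet air library 1, and the cause was not tested. RLE scaling, library totals and no filter left the counts within 1.5 times. Replicate numbers did not pair the libraries: same-numbered libraries had a mean correlation of -0.0233 over 36 pairs and 0 of 24 were closest to their own number. With a replicate block 11 and 20 members were called lower after ozone on the control and DHA diets, and 1, 0 and 0 in the diet and interaction comparisons. Of all genes, 6.56%, 9.84%, 0.13%, 0% and 0% were called lower there. Under the alternatives 2655 results of single genes kept their side of the threshold, 152 lost and 14 gained a call, and none reversed. Depth limits Mx1, Mx2, Oasl1 and Oas3 most.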
